A study of Drosophila melanogaster with 13 samples.

Results

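The genes described here encode the sarcomere and the contraction machinery of muscle, 32 of the 13893 genes with estimated counts in the fly proboscis. They were taken by name, as the genes that the deposited transcript table lists under 32 fixed symbols, and their estimated counts were summed over 235 of the 30397 transcripts that have a gene. The list holds 13 thin filament genes, 6 thick filament genes, 4 titin-like proteins and kinases, 8 Z-disc and anchoring genes, and 1 calcium release channel.

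A sarcomere is the contractile unit of striated muscle. Thick filaments of myosin slide along thin filaments of actin, and troponin and tropomyosin on the thin filament block myosin until calcium is released into the cytoplasm. Z-discs anchor the thin filaments, and giant titin-like proteins link Z-discs to thick filaments. In the proboscis, striated muscles extend the mouthpart, open the labellum and pump food.

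RNA of dissected proboscises, with the tissue labelled as labellum, was sequenced in 4 groups of Drosophila melanogaster. The diet experiment used the parental genotype. Its flies were fed high sugar food (sugar diet, n = 2) or normal cornmeal food (control diet, n = 2) for 7 days, and each library came from 200 proboscises. The other experiment fed every fly the sugar diet for 7 days. All its flies had the Gr5a-GAL4 transgene, which drives expression in sweet-sensing neurons and not in muscle. They had it with UAS-OGT RNAi (OGT RNAi, n = 5), which targets the O-GlcNAc transferase gene sxc, or without a UAS transgene (Gr5a-GAL4 / +, Gal4 control, n = 4), with 20 proboscises in each library. The library kit also differed between the experiments, so levels in one are set beside levels in the other without a test. The replicates are called biological in the series text without a word on how pools were formed, so p-values reflect only how far these samples spread.

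Depth, as total estimated counts per library, was 5632598 to 6481195 for sugar diet, 7559788 to 8105908 for control diet, 8183507 to 13884994 for OGT RNAi and 11067627 to 13467476 for Gal4 control. A count of 0 allows up to 3 counts, or 0.216 to 0.533 CPM (counts scaled to library size), for counting error only, since reads carried no molecular identifiers. The targeted gene sxc had 133 to 170 normalized CPM in OGT RNAi libraries and 142 to 174 in Gal4 control libraries, and it was not called (log2 change -0.19, SE 0.086, edgeR adjusted p = 0.376). A loss of sxc in whole proboscises therefore does not check the labels. Gal4 control replicates 3 and 4 stood apart in eye photoreceptor markers, of which ninaE encodes the main rhodopsin. In TPM, a level scaled for transcript length and library size, ninaE was at 0.446 to 1.37 in the OGT RNAi libraries and at 0.973, 1.35, 22.5 and 487 in Gal4 control replicates 1 to 4. The whole eye list summed to at most 26.9 TPM in the OGT RNAi libraries, against 23.1, 21.6, 50.01 and 567 TPM in Gal4 control replicates 1 to 4. The OGT RNAi comparison called 0 members without replicate 3 and 0 without replicate 4, with median log2 changes of -0.074 and -0.0012.

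Of all counts the members took 11.0 and 11.1% on sugar diet, against 9.48 and 9.72% on control diet. Per length their summed levels overlapped between the diets, at 15529 and 17413 TPM on sugar diet and 15049 and 16344 TPM on control diet. They took 3.77 to 5.12% in the OGT RNAi libraries and 4.00 to 5.22% in the Gal4 control libraries. Msp300 alone, a giant nesprin that anchors nuclei and Z-discs, gave 75437 and 74187 normalized CPM on the sugar diet against 55678 and 55809 on the control diet. These CPM are normalized between libraries, so they are not on the scale of the shares of all counts above. In bulk tissue, a change in the number or size of muscle cells and a change in RNA per muscle cell cannot be told apart.

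The muscle of the proboscis was marked by one dominant actin. Act57B, a muscle actin (2R:20944021-20946431), was the most abundant member per length in every group. It averaged 3385 ± 420 TPM on the sugar diet and 2973 ± 126 TPM on the control diet (SD, n = 2 each). In the second experiment it averaged 3077 ± 136 TPM in OGT RNAi libraries (SD, n = 5) and 3128 ± 221 TPM in Gal4 control libraries (SD, n = 4). On mean level it ranked at place 20 among all genes on the sugar diet and at place 28 on the control diet. Act87E, the next muscle actin, averaged 309 ± 32.1 TPM on the sugar diet and 299 ± 29.0 TPM on the control diet. The coding sequences of the fly actins are near-identical, so reads shared between them were split by the authors' quantification, and levels of single actins are uncertain to that extent.

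Genes of the flight muscle were at a few TPM or less. Act88F, the flight muscle actin, had 1 and 3 counts on the sugar diet against 10 and 3 on the control diet. Flightin (fln), which stiffens flight muscle thick filaments, had 0 and 2 counts on the sugar diet against 2 and 0 on the control diet, and TpnC4, the calcium sensor of flight muscle, had 12 and 3 against 8 and 10. These 3 flight muscle markers together summed to 1.99 to 4.98 TPM on the sugar diet and 3.07 to 3.92 TPM on the control diet. They summed to 3.26 to 6.94 TPM in OGT RNAi libraries and 3.61 to 4.71 TPM in Gal4 control libraries. Zasp67, a Z-disc PDZ-LIM relative, had at most 0.573 TPM in any library, and Act79B, an actin of tubular muscles, lay between 1.97 and 15.8 TPM.

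Of the 5 troponin C genes, which encode the calcium-binding subunit of troponin, TpnC25D carried most of the signal. TpnC25D had 534 and 562 TPM on the sugar diet, against 530 and 569 TPM on the control diet. TpnC73F had 24.2 and 28.2 TPM on the sugar diet against 15.4 and 24.7 TPM on the control diet. TpnC41C had 14.1 and 13.9 TPM on the sugar diet against 12.3 and 12.7 TPM on the control diet. In the second experiment TpnC41C reached 61.3 to 105 TPM in OGT RNAi libraries and 90.1 to 127 TPM in Gal4 control libraries, above its level in every library of the diet experiment. TpnC47D was at 3 and 1 counts on the sugar diet and at 0 in both control diet libraries, which is at or under the floor of 3 counts on both diets.

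Troponin T (up) averaged 451 ± 14.9 TPM on the sugar diet and 468 ± 33.0 TPM on the control diet, and troponin I (wupA) averaged 414 ± 25.0 and 390 ± 34.4 TPM. The tropomyosins Tm1 and Tm2, which lie along the actin filament, averaged 366 ± 47.2 and 345 ± 39.1 TPM on the sugar diet, against 315 ± 29.2 and 336 ± 30.0 TPM on the control diet. Troponin T was above the other 3 genes in every library of its diet, while the ranges of Tm1 and Tm2 overlapped on both diets.

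In the thick filament, myofilin (Mf), a core protein of insect thick filaments, had the highest level per length, at 2819 ± 145 TPM on the sugar diet and 2634 ± 155 TPM on the control diet. The regulatory light chain Mlc2 followed at 966 ± 72.0 and 907 ± 32.6 TPM. Muscle myosin heavy chain (Mhc) averaged 607 ± 44.1 TPM on the sugar diet and 576 ± 33.0 TPM on the control diet, and the essential light chain Mlc1 averaged 501 ± 10.2 and 531 ± 25.7 TPM. Paramyosin (Prm), a rod protein of the thick filament core, was lower at 170 ± 14.7 and 175 ± 7.13 TPM. In the second experiment Mf was at 1032 ± 130 TPM in OGT RNAi libraries and 1156 ± 180 TPM in Gal4 control libraries, while Mhc was at 711 ± 99.4 and 735 ± 187 TPM.

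Among the giant proteins, sallimus (sls), the titin and kettin gene of the Z-disc end, averaged 571 ± 30.5 TPM on the sugar diet and 547 ± 12.2 TPM on the control diet. Projectin (bt), the titin-like kinase of the A-band, was at 264 ± 15.7 and 240 ± 18.9 TPM. Strn-Mlck, a relative of myosin light chain kinases, was at 168 ± 12.5 and 177 ± 14.2 TPM, and obscurin (Unc-89), an M-line protein, at 102 ± 14.1 and 98.1 ± 9.75 TPM. Of the anchoring genes, Msp300 averaged 2578 ± 380 TPM on the sugar diet and 2333 ± 147 TPM on the control diet, and Zasp66, a Z-disc PDZ protein, 906 ± 87.7 and 1077 ± 146 TPM. Its relative Zasp52 averaged 475 ± 42.2 TPM on the sugar diet and 567 ± 69.0 TPM on the control diet. Alpha-actinin (Actn), which crosslinks actin filaments at the Z-disc, and the ubiquitin ligase thin (tn) averaged 138 ± 13.4 and 132 ± 0.0315 TPM on the sugar diet, against 145 ± 0.0671 and 122 ± 2.40 TPM on the control diet. The muscle LIM proteins Mlp84B and Mlp60A averaged 98.2 ± 0.164 and 74.3 ± 13.6 TPM on the sugar diet, against 113 ± 0.75 and 56.5 ± 8.04 TPM on the control diet. RyR, the ryanodine receptor that releases calcium from the sarcoplasmic reticulum, averaged 36.1 ± 3.45 TPM on the sugar diet and 31.2 ± 2.36 TPM on the control diet.

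**Figure D1:**
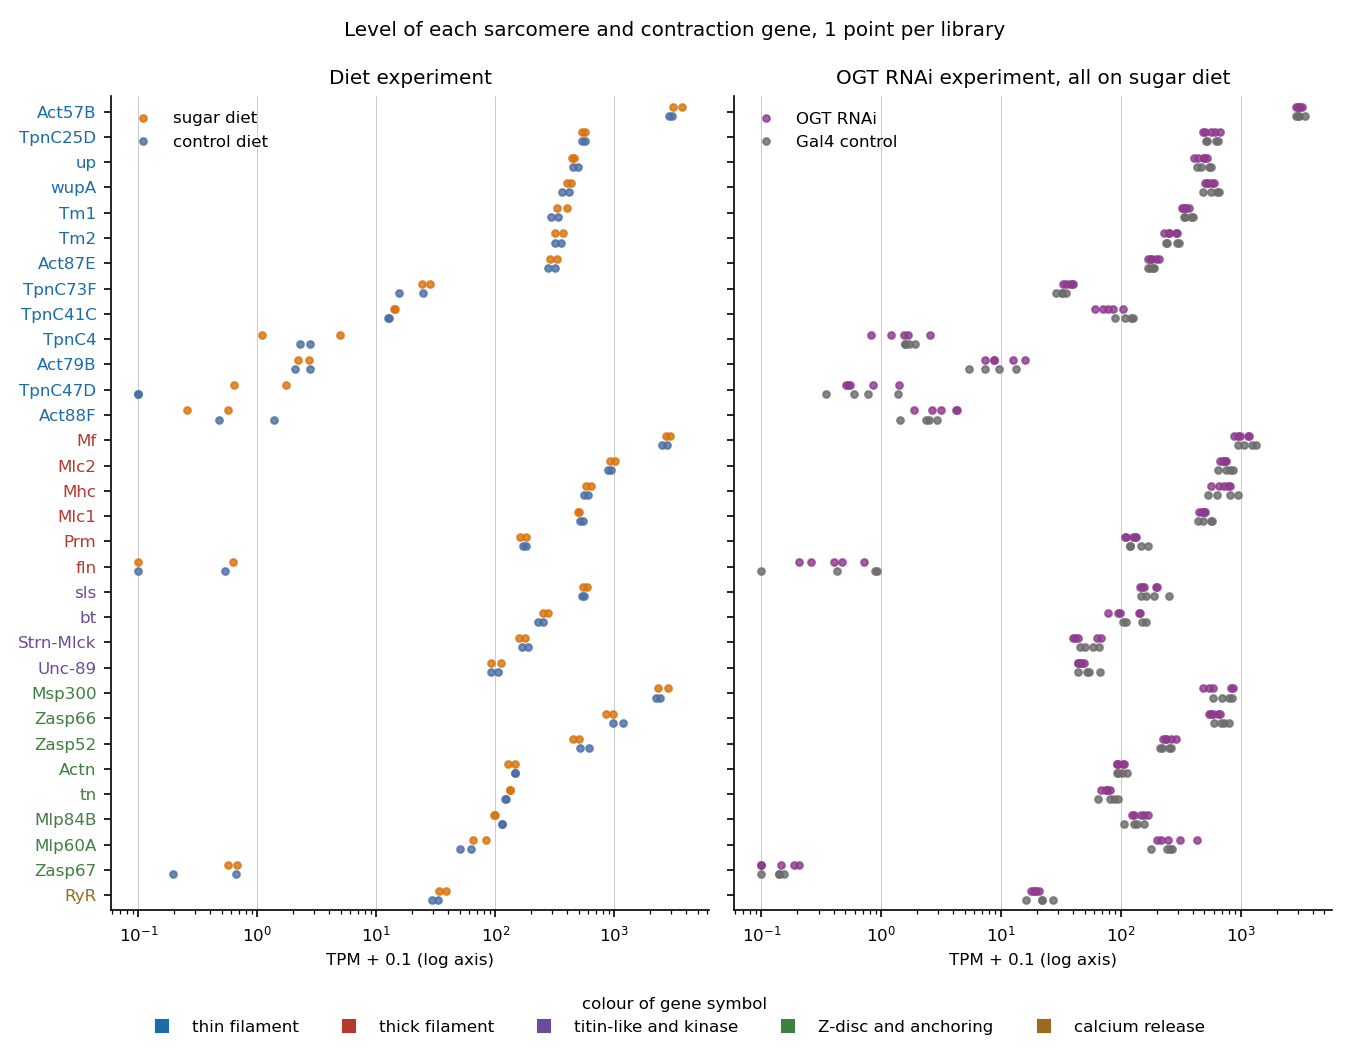
Level of each of the 32 members in TPM plus 0.1 on a log axis, 1 point per library, with sugar diet above control diet on the left and OGT RNAi above Gal4 control on the right; symbols are coloured by role. Act57B is the highest member in each group, with means of 2973 to 3385 TPM. Act88F, fln, TpnC47D and Zasp67 lie at the low end on the left, and TpnC4, fln, TpnC47D and Zasp67 on the right.

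The first comparison asked what 7 days of sugar diet did to these transcripts in the proboscis. Of the 32 members 27 had enough counts to be tested, and 12 of them rose on the sugar diet while 0 fell. Over all 8825 tested genes 6.47% were called, 3.12% higher and 3.35% lower. DESeq2 called the same 12 higher, beside 2.41% of all genes it tested, and at an unadjusted p under 0.05 in edgeR there were 22 members, beside 17.7% of all genes. The genes that rose span the sarcomere: 2 actins, tropomyosin 1, a myosin light chain, myofilin, all 4 titin-like genes, 2 anchoring genes and the calcium release channel. The changes were small, between 1.23-fold and 1.41-fold. All 27 tested members had log2 changes above 0 on normalized counts, against 50.6% of all tested genes, and their median was 0.34 against 0.0037 over all tested genes. When counts were scaled by library totals alone 23 of the 27 stayed above 0, Mlc1, Mlp84B, Zasp52 and Zasp66 being the exceptions. On the TPM scale 18 did, and without sugar diet replicate 1 the count was 23 of 28. In 23 members both sugar diet libraries were above both control diet libraries, a pattern held by 23.5% of all tested genes.

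The calls changed with the libraries and the scaling. With 1 library left out, its group has a single library that is assumed to vary like the other group. The count of members called was then 0 without control diet replicate 1, with log2 changes of the 12 genes at 0.28 to 0.47, beside 0.30 to 0.49 with all libraries. It was 2 (RyR and Tm1) without control diet replicate 2, with changes of 0.32 to 0.52, and 21 without sugar diet replicate 2, with changes of 0.36 to 0.56. With library totals in place of the trimmed mean of M-values (TMM), a choice made after seeing the data, and on TPM values tested with limma, 0 members were called. Under these scalings the median of all genes shifted to -0.20 and -0.25, and the members' median stayed 0.33 and 0.31 above it, beside 0.33 on TMM-normalized counts. The TMM factors were 0.899 and 0.966 for sugar diet, against 1.06 and 1.09 for control diet. Summed TPM of 6 marker lists of other cell types was lower in both sugar diet libraries, on a scale where the all-gene median was also lower. Fat body markers summed to 126 and 162 TPM on the sugar diet against 228 and 259 TPM on the control diet, and haemocyte markers to 346 and 413 against 601 and 726 TPM. Single genes made up most of these sums. The fat body gene apolpp averaged 133 TPM on the sugar diet and 213 TPM on the control diet. The haemocyte gene Nplp2 averaged 358 and 635 TPM, and the gut gene Jon25Bi 47.1 and 105 TPM. Gut markers summed to 36.5 and 61.5 TPM on the sugar diet against 104 and 108 TPM on the control diet, sweet taste markers to 12.5 and 19.8 against 24.3 and 24.9 TPM, and neuron markers to 236 and 281 against 298 and 336 TPM. Eye markers summed to 17.3 and 22.5 TPM on the sugar diet against 26.3 and 24.8 TPM on the control diet. On TMM-normalized counts the 8 neuron markers had a median log2 change of -0.015, with 3 above 0 and 5 below. The median was -0.070 for the 2 tested eye markers and -0.34 for the 5 tested sweet taste markers. The part of these markers in the result was not tested.

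Among the thin filament genes 3 of 10 tested members rose. Tm1 (3R) had 450 and 441 normalized CPM on the sugar diet against 310 and 332 CPM on the control diet, so both sugar diet libraries were higher. Its log2 change was 0.47 (SE 0.076, edgeR adjusted p = 0.000791). Act57B had 4242 and 4102 CPM on the sugar diet against 3050 and 3008 CPM on the control diet, with a log2 change of 0.46 (SE 0.089, adjusted p = 0.00387). Act87E (3R:13425983-13428375) had 359 and 336 CPM against 271 and 285 CPM, with a log2 change of 0.32 (SE 0.077, adjusted p = 0.0177). The groups did not overlap for any of the 3 genes. The troponin genes did not pass the test: log2 changes were 0.24 for up, 0.38 for wupA, 0.26 for TpnC25D, 0.64 for TpnC73F and 0.39 for TpnC41C. Nor did Act79B (0.30) and Tm2 (0.23). The 95% interval of TpnC25D, the main troponin C, ran from 0.082 to 0.44.

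Of 5 tested thick filament genes 2 rose. Mlc2 (3R:30171438-30174551) had 1720 and 1546 CPM on the sugar diet against 1276 and 1248 CPM on the control diet, a log2 change of 0.37 (SE 0.081, adjusted p = 0.00915). Mf (3R:15170625-15181510) had 2396 and 2049 CPM against 1754 and 1781 CPM, a log2 change of 0.33 (SE 0.090, adjusted p = 0.0360). Without sugar diet replicate 1, which leaves 1 sugar diet library, Mf had a log2 change of 0.21 and was not called (edgeR adjusted p = 0.0750). Mhc had 3777 and 2738 CPM on the sugar diet against 2702 and 2322 CPM on the control diet and did not pass the test (log2 change 0.38, SE 0.14, adjusted p = 0.178). The groups did not overlap, but the sugar diet libraries lay far apart, and the lower one was close to the higher control diet library. Mlc1 and Prm had log2 changes of 0.20 and 0.23 and were not called.

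All 4 titin-like and kinase genes rose. Unc-89 (2R:23995543-24014254) had 1000 and 968 CPM on the sugar diet against 758 and 799 CPM on the control diet, a log2 change of 0.34 (SE 0.076, adjusted p = 0.0113). Projectin (bt, 4:724400-776474) had 6035 and 5279 CPM against 4133 and 4303 CPM, a log2 change of 0.42 (SE 0.099, adjusted p = 0.0139). The sls gene (3L:2039681-2115611) had 19156 and 15997 CPM against 13141 and 12863 CPM, a log2 change of 0.43 (SE 0.11, adjusted p = 0.0230). In these 3 genes the sugar diet libraries all lay above the control diet libraries. Strn-Mlck (2R:15946933-15989498), at 2371 and 2173 CPM against 1826 and 1874 CPM, rose by 0.30 on the log2 scale with the weakest call of the 12 (SE 0.085, adjusted p = 0.0462). Its direction turned on the TPM scale, to -0.076, and its call and that of sls were lost when changes in effective transcript length were taken into the fit.

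Of 7 tested Z-disc and anchoring genes 2 rose. The TRIM-NHL protein thin (tn, 2R:18987344-19008944), which keeps larval muscle from degenerating, had 486 and 407 CPM on the sugar diet against 344 and 330 CPM on the control diet (log2 change 0.40, SE 0.087, adjusted p = 0.00841). Msp300 (2L:5100877-5207002) had a log2 change of 0.42 (SE 0.11, adjusted p = 0.0249). The other 5 were not called. Zasp52 and Zasp66, which bind alpha-actinin, had log2 changes of 0.032 and 0.013, with 95% intervals from -0.15 to 0.21 and from -0.16 to 0.18. Alpha-actinin itself (Actn) had a log2 change of 0.21 and the muscle LIM protein Mlp84B of 0.079. Its relative Mlp60A had the largest log2 change of the tested members, 0.69, with 33.6 and 20.0 CPM against 18.6 and 14.3 CPM, and did not pass the test (adjusted p = 0.117).

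RyR (2R:8860364-8888097) had the smallest adjusted p of the members. It had 477 and 439 CPM on the sugar diet against 320 and 331 CPM on the control diet, a 1.41-fold difference (log2 change 0.49, SE 0.077, adjusted p = 0.000640). Both sugar diet libraries lay above both control diet libraries.

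**Figure D2:**
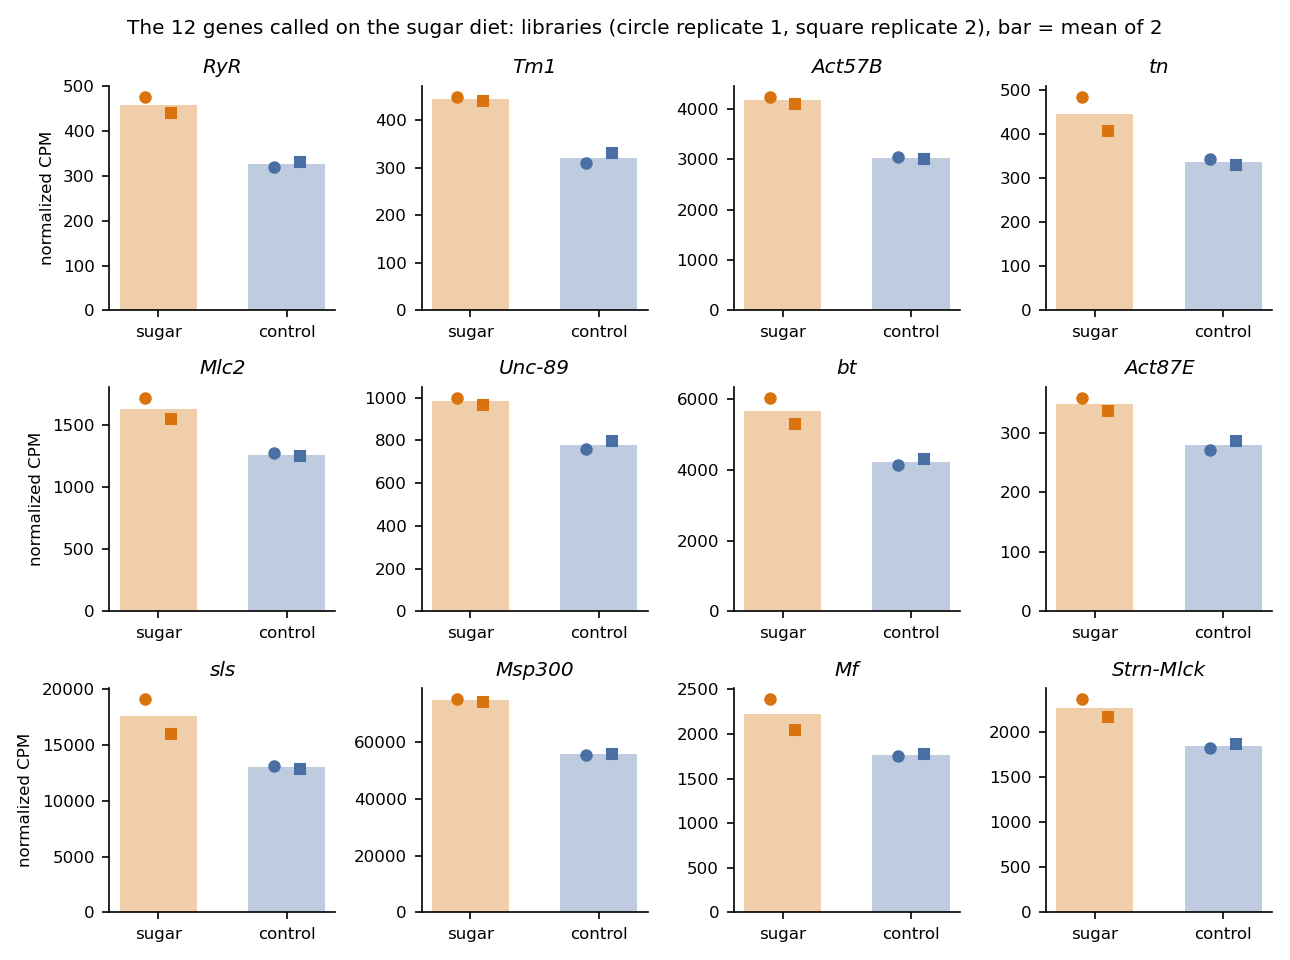
Normalized CPM of the 12 members that rose on the sugar diet, in the order of their adjusted p, with sugar diet left of control diet; bars are means of 2 libraries and axes start at 0. In every panel both sugar diet libraries lie above both control diet libraries, as for RyR with 477 and 439 against 320 and 331 CPM.

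The diet comparison was also tested by the study itself. In the authors' deposited table, 10 of 28 members with a q-value had q under 0.05, all higher on the sugar diet, where 4.73% of 9591 genes passed. Of these, 8 were among the 12 that rose here, and Prm and Tm2 were called in the authors' deposited table only. The genes tn, Strn-Mlck and sls rose here but had deposited q-values of 0.158, 0.162 and 0.382. The authors' deposited table gives RyR an effect b of 0.34 on the natural log scale (q = 1.27e-08). For Msp300 the authors' deposited table gives an effect but no p-value.

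Genes that work with the sarcomere were looked at in 4 further lists. Of 16 tested genes for calcium handling and the neuromuscular junction, 2 rose and 0 fell on the sugar diet, with a list median of 0.12. They were Calx, a sodium and calcium exchanger (261 ± 24.7 CPM on sugar diet, 189 ± 6.34 CPM on control diet, log2 change 0.46, adjusted p = 0.00261), and Amph, which shapes the T-tubules of fly muscle (log2 change 0.28, adjusted p = 0.0420). Of 20 genes for sarcomere assembly and muscle regulation 5 rose, with a median of 0.21. The muscle splicing factor muscleblind (mbl) averaged 2588 ± 298 CPM on sugar diet, against 1520 ± 29.2 CPM on control diet (SD, n = 2 each), a log2 change of 0.77 (adjusted p = 4.18e-05). Lmpt, a LIM protein of muscle, rose by 0.41, Chd64, a calponin-related protein, by 0.33, and cpa, a subunit of the actin capping protein, by 0.38 on the log2 scale. Of 13 muscle attachment genes and of 9 genes of cytoplasmic actin and myosin 0 were called, with list medians of 0.099 and 0.11. Over all tested genes 3.12% were called higher and 3.35% lower. These calls are on TMM-normalized counts. In TPM, Amph averaged 153 on the sugar diet and 152 on the control diet, Calx 55.5 and 51.3, and cpa 54.9 and 50.9. On the same scale Lmpt averaged 271 and 240, Chd64 338 and 320, and mbl 1025 and 697.

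Among the marker lists of other cell types in the diet comparison, 1 of 8 neuron genes fell (cpx, which controls vesicle fusion, -0.47) and 2 of 6 glial genes rose (nrv2, 0.61, and repo, 0.58). Of the other glial genes 2 had both sugar diet libraries below both control diet libraries without a call, with values down to -0.48, and the list summed to 711 to 865 TPM on the sugar diet and 835 to 850 TPM on the control diet. Both tested fat body genes fell, Lsp1beta by 1.35 and apolpp by 0.40 on the log2 scale. Nplp2 among 5 haemocyte genes fell by 0.57 and the digestive protease Jon25Bi, the only tested gut gene, fell by 0.90. The haemocyte marker He and the gut markers Jon65Ai and Npc2d were at 0 counts on both diets. Of 2 tested eye, 5 sweet taste and 1 salivary gland markers 0 were called.

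The second comparison asked whether OGT RNAi in sweet taste neurons, under the sugar diet, changed these genes. None of the 28 tested members passed the edgeR test, where 1.27% of 9399 tested genes did, and DESeq2 also called 0, where it called 1.61% of all genes higher and 0.916% lower. At an unadjusted p under 0.05 there were 2 members, beside 12.9% of all tested genes. The members' median log2 change was -0.063, against 0.0034 over all tested genes, with 10 members above 0 and 18 below, beside 50.8% of all tested genes above 0. In 0 members did the groups not overlap, beside 5.54% of all tested genes. In the authors' deposited table, 0 of 29 members passed a q of 0.05, beside 2.82% of 9750 genes.

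The smallest p belonged to TpnC41C. It had 47.0, 44.3, 42.1, 63.7 and 34.9 CPM in OGT RNAi libraries and 69.7, 50.2, 69.9 and 62.2 CPM in Gal4 control libraries. Most OGT RNAi libraries were lower, but replicate 4 lay within the control range, and the log2 change of -0.45 (SE 0.16) did not pass the test (edgeR adjusted p = 0.256). Without OGT RNAi replicate 4 it did, with a log2 change of -0.59 and an edgeR adjusted p of 0.00945; over its 20 alternatives the adjusted p ran up to 0.501. TpnC73F had a log2 change of 0.22 (adjusted p = 0.322), Zasp66 of -0.17 (adjusted p = 0.415) and Act88F of 0.54 at 1.57 to 5.03 CPM (adjusted p = 0.416).

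The 12 members that rose on the sugar diet had log2 changes between -0.20 and 0.084 in the OGT RNAi comparison, 2 above 0 and 10 below. For Act57B the value was 0.014 with a 95% interval from -0.15 to 0.17, and for Tm1 it was -0.071 with an interval from -0.22 to 0.076. RyR had -0.15 with an interval from -0.38 to 0.082. The sugar diet libraries of the first experiment are not the control of the second, and whether the effects differ between the experiments was not tested.

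**Figure D3:**
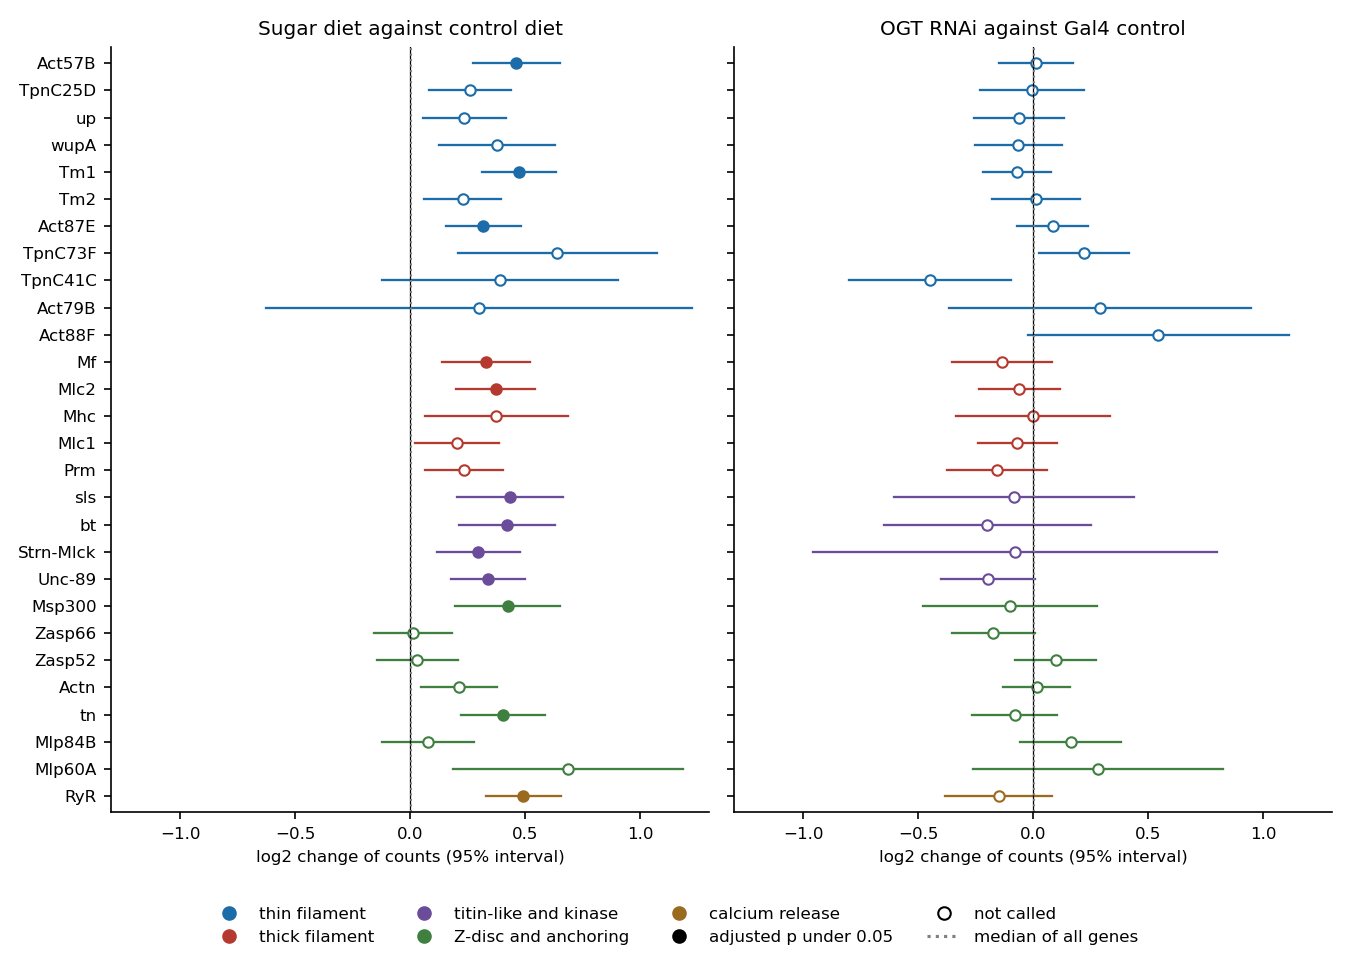
Fitted log2 change with its 95% interval for each tested member, sugar diet against control diet on the left and OGT RNAi against Gal4 control on the right, by role; filled points have an adjusted p under 0.05 and the dotted line is the median of all tested genes. All 27 points lie above 0 on the left, and on the right 10 of 28 do.

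Among members with at least 20 CPM, Strn-Mlck, sls and Mlp60A varied most between libraries within the groups of the OGT RNAi experiment. Strn-Mlck had 1055, 1186, 502, 519 and 386 CPM in OGT RNAi replicates 1 to 5 and 734, 597, 777 and 972 CPM in Gal4 control replicates 1 to 4. OGT RNAi replicates 1 and 2 were above every control library and replicates 3 to 5 were below every one. The sls gene followed, with 7015, 6881, 4450, 4829 and 3614 CPM in OGT RNAi libraries and 6980, 4379, 4883 and 6470 CPM in Gal4 control libraries. The SD of log2 CPM within groups was 0.57 for Strn-Mlck, 0.38 for sls, 0.34 for bt and 0.30 for Msp300, against 0.092 for Act57B and 0.15 over all tested genes. Among 26 members with at least 20 CPM this SD had a correlation with mean effective length of rho 0.33 (Spearman) and r 0.47 (Pearson, log2 length), and in the diet experiment the values were -0.27 and -0.35 over 24 members. The points share their libraries. Mlp60A, the shortest of these members, had an SD of 0.37, with 51.6 to 116 CPM in OGT RNAi libraries and 50.9 to 67.7 CPM in Gal4 control libraries, where OGT RNAi replicate 5 was highest.

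**Figure D4:**
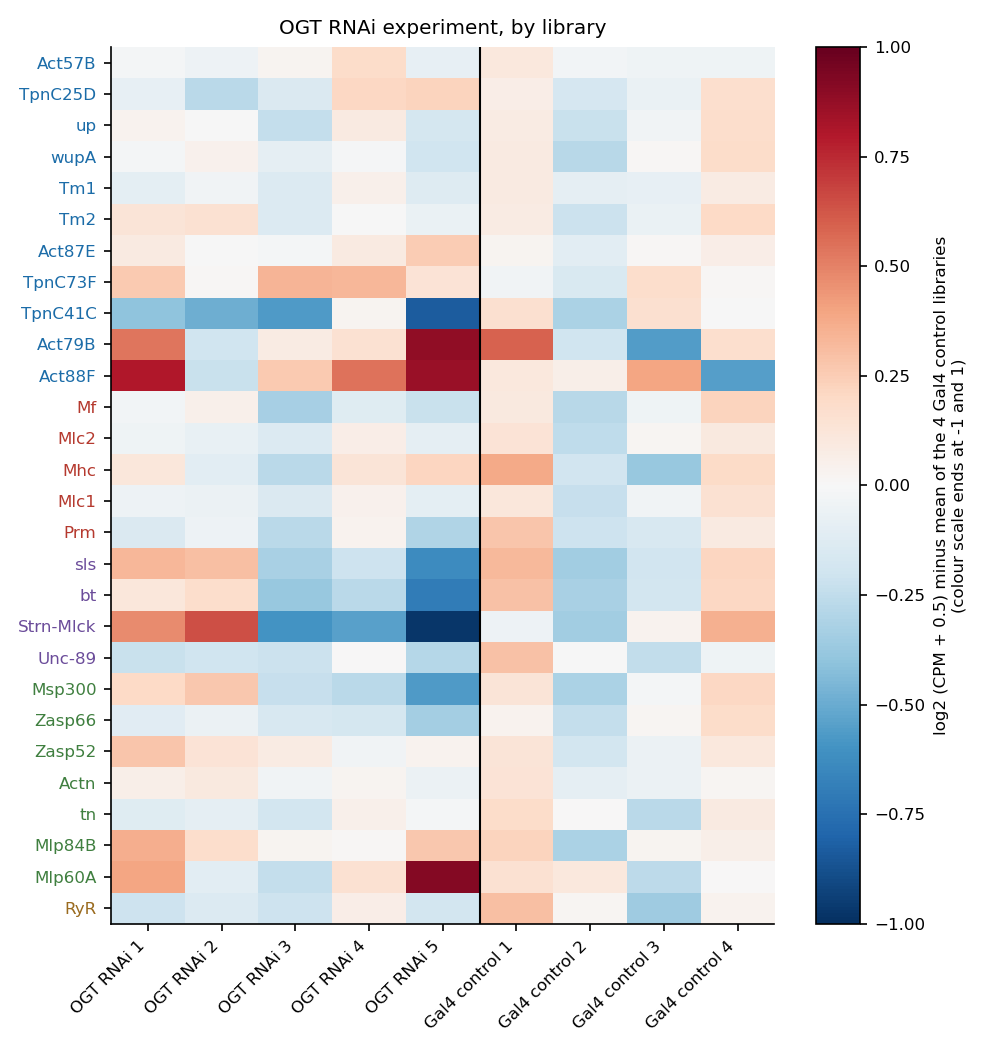
Heat map of the 28 members tested in the OGT RNAi experiment, as log2 of CPM plus 0.5 minus the mean of the 4 Gal4 control libraries, with OGT RNAi libraries left of the line. The rows of sls, bt, Strn-Mlck and Msp300 are red in OGT RNAi replicates 1 and 2 and blue in replicates 3 to 5.

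Among the other lists in this comparison 1 gene was called, SclA of the calcium handling list, a small peptide that inhibits the calcium pump SERCA. It had 0.794 ± 0.36 CPM in OGT RNAi libraries and 2.50 ± 1.08 CPM in Gal4 control libraries (log2 change -1.70, adjusted p = 0.0229), a level of few counts. The assembly, attachment, cytoplasmic and cell type lists had 0 genes called. Gut markers summed to 0.426 to 136 TPM in OGT RNAi libraries and 121 to 185 TPM in Gal4 control libraries, and their part in the members' values was not tested.

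Transcript models add the isoforms behind these sums. Tested one by one, 0 of 162 member transcripts passed the edgeR test on the sugar diet, as did 0 of all 17390 transcripts tested (0.0%). At an unadjusted p under 0.05 there were 35, of which 31 were higher and 4 lower, beside 8.38% of all transcripts. DESeq2 called 25 higher and 3 lower of 169, where it called 2.15% of all transcripts higher and 2.64% lower. In the authors' deposited table, 8 member transcripts passed a q of 0.05 on the sugar diet, all higher. Of all transcripts in the authors' deposited table, 1.06% passed, and in its OGT RNAi comparison 0 member transcripts passed, beside 0.792% of all. In the OGT RNAi comparison 0 of 180 member transcripts passed the edgeR test, beside 0.00521% of 19193 transcripts, 13 had an unadjusted p under 0.05, beside 7.23% of all. DESeq2 called 1 higher, beside 0.787% of all.

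Some genes gave nearly all their signal through one transcript. TpnC25D-RA held 96.2 to 98.4% of the TPM of TpnC25D over all libraries, and Mlc1-RB held 94.3 to 99.1% of Mlc1. Others split it, with Mhc-RP, the leading transcript of Mhc, at 24.2 to 28.1% on the sugar diet and 19.8 to 25.0% on the control diet.

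The share of a gene's TPM held by its leading transcript was compared between the diets without a test. Of 24 members with at least 2 transcripts above 1 TPM, 13 had shares that did not overlap between the diets, beside 34.9% of 4263 genes. In 5 of them the share was higher on the sugar diet and in 8 lower, beside 18.1 and 16.7% of genes. The leading transcript of Tm2 held 56.3 to 61.8% of its TPM on the sugar diet and 68.6 to 70.5% on the control diet. For wupA, the exon alternative carried by the leading troponin I transcripts (X:18109470-18109570) held 48.0 and 52.2% on the sugar diet, against 62.3 and 59.3% on the control diet. Tm1-RM went the other way, with 45.1 to 49.0% on the sugar diet and 36.9 to 44.6% on the control diet, where the control diet libraries lay further apart than the gap between the diets. The log2 change of Tm1-RM was 0.68 (edgeR adjusted p = 0.435). In the OGT RNAi comparison 0 of 24 members had shares that did not overlap, beside 2.65% of 4309 genes.

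Between the experiments the leading transcript changed in weight for several genes. Prm-RA held 23.8 to 37.9% of paramyosin in the diet experiment and 83.4 to 86.5% in the OGT RNAi experiment. Mlp84B-RA held 4.99 to 25.6% and 54.8 to 73.3%, and Mf-RC held 56.6 to 62.0% and 26.0 to 30.5%. Genotype, library kit and input differ together between the experiments, and their parts cannot be told apart.

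Muscle myosin heavy chain is encoded in flies by the single gene Mhc, whose transcripts choose 1 exon from each of several sets. In the BDGP6 annotation 5 such sets were found on 2L by length and exclusion over its 21 transcripts. Alternatives are numbered here by rising coordinate. Of the 4 alternatives of 104 bases, the last, at 2L:16773277-16773380, held 59.5 and 65.4% of Mhc TPM on the sugar diet against 64.5 and 67.2% on the control diet, and the first held 24.4 to 29.6% against 20.6 to 25.2%. The groups overlapped for both. In the OGT RNAi experiment the last alternative held 65.6 ± 0.583% in OGT RNAi libraries (SD, n = 5) and 64.8 ± 1.66% in Gal4 control libraries (SD, n = 4).

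The middle of 3 alternatives of 171 bases (2L:16775683-16775853) held 87.4 to 93.0% over the 13 libraries. It held 88.9 to 91.8% in OGT RNAi libraries and 91.9 to 93.0% in Gal4 control libraries, so the groups did not overlap. The first of that set did not overlap either, at 6.84 to 9.55% against 5.49 to 6.31%. Nor did the second of the 104-base set, at 4.75 to 5.50% against 5.84 to 6.41%. These shares were compared without a test. Shares within a set depend on each other, so the first and middle of the 171-base set are not separate observations. All other alternatives of the 5 sets overlapped between OGT RNAi and Gal4 control. In that comparison shares of leading transcripts did not overlap in 2.65% of 4309 genes. The second of the pair of 144 bases (2L:16769459-16769602) held at least 97.2%. Of the 5 alternatives of 118 bases the third (2L:16778390-16778507) held 62.0 ± 4.18% on the sugar diet and 65.8 ± 2.02% on the control diet (SD, n = 2 each). The fourth of these held 11.0 and 10.3% on the sugar diet against 6.01 and 5.04% on the control diet. The diets did not overlap there. Nor did they for the first of the 144-base pair, at 1.25 and 1.61% against 1.11 and 0.978%. The same held for the third of the 104-base set, at 0.673 and 0.539% against 0.448 and 0.323%. Between the diets, shares of leading transcripts did not overlap in 34.9% of 4263 genes. Such background shares cover the most abundant transcript of each gene, a measure unlike the share of a minor exon alternative. The first of the pair of 79 bases held 60.1 to 67.5% over all libraries. The same length and exclusion rule found a pair of 79 bases in troponin T (up), where the first alternative (X:13594285-13594363) held 98.0 to 99.4% in all libraries.

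**Figure D5:**
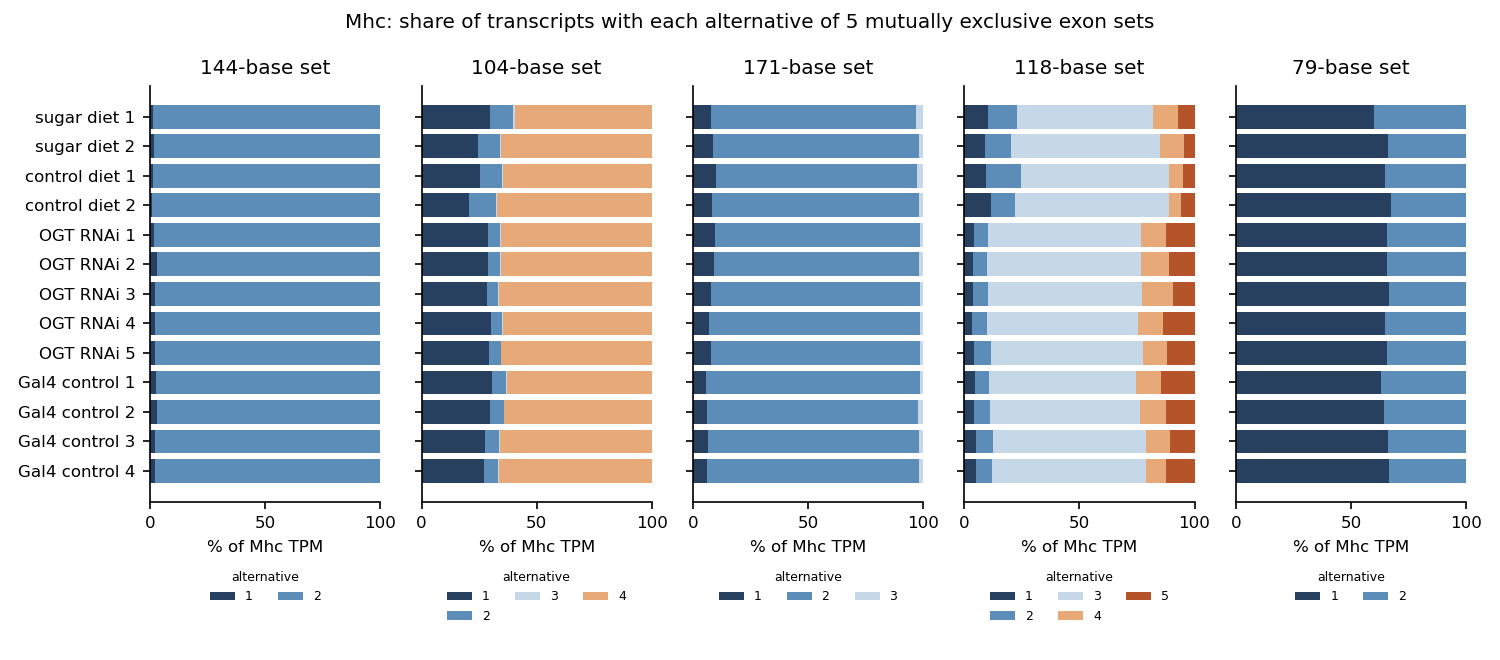
Share of Mhc TPM carried by transcripts with each alternative of 5 mutually exclusive exon sets, in percent, 1 bar per library with sugar diet above control diet and OGT RNAi above Gal4 control. The leading alternative of each set is the same in all libraries, with the last one of the 104-base set at 59.5 to 67.2%.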

How the data were processed

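Per the submitters' processing notes, the authors used Trimmomatic 0.22, kallisto 0.43 and sleuth; genome build, annotation release and the model behind the result tables are not given in the sources used here. The deposited tables hold the authors' estimated counts (expected counts, not normalized; 73.7% of the positive values were not whole at a tolerance of 1e-06) and the authors' TPM for 30449 targets in each library. Both kinds of deposited result table give effects on a natural log (ln) scale with the authors' p-values and q-values. The deposited effective transcript lengths (a score here) were used for the length alternative.

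Estimated counts were summed per gene and rounded; 52 targets without a gene, with 0.042 to 0.057% of counts, were left out. For each comparison, edgeR 4.0.16 in R 4.3.3 was run on that comparison's libraries alone: filterByExpr (minimum count 10, minimum total 15), TMM, and its quasi-likelihood test with robust estimation, two-sided. Benjamini-Hochberg adjustment ran over every gene, or every transcript, tested, and a call is an adjusted p under 0.05. Alternatives used DESeq2 1.42.0 and limma 3.58.1 on log2(TPM + 1) and log2(TPM + 0.1), which understates changes of low genes. The gene-level edgeR fits were tested on simulated data, with planted changes larger than those of the members called on the sugar diet. Neither changes as small as those of the called members nor a shift in scaling between the groups were simulated. The simulation therefore does not bear on the diet calls of the members. With no stated use of strand, overlapping genes on opposite strands may share reads. Positions and exons are those of the BDGP6 annotation of Ensembl release 115; all 235 member transcripts had the same spliced length there, and the position of Tm1 differed from that in the deposited tables.

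The members and lists were chosen with earlier results of these data known. Every member is accounted for by level. Test values are given for called members, or the 4 with the smallest p where fewer were called; other changes are given by value. The leading transcript of a gene is the one with the highest mean TPM, and genes of other lists are named where called, up to 4 a list.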

Additional observations from a re-analysis of the deposited data

Results flagged for a closer look

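In the OGT RNAi experiment, 3 of 56 sets of library values (28 members in 2 groups) had a library far from the rest of its group by Dixon's test, which chance gives in about 1 in 20. Act57B had 4370 CPM in Gal4 control replicate 1, against 3946 to 3992 CPM in the other Gal4 control libraries. In OGT RNAi replicate 4, Unc-89 had 551 CPM, against 450 to 478 CPM in the other OGT RNAi libraries. RyR had 298 CPM in the same library, against 246 to 259 CPM in the others. None of these genes was called in that comparison by edgeR.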

How the results depend on the processing

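On the sugar diet, 12 members were called, and the same 12 under DESeq2. The count was 10 to 16 under 7 alternatives, but 0 on log2(TPM + 1) and log2(TPM + 0.1) with limma, and 0 with library totals, chosen after seeing the data; it was 0 to 21 when each library was left out. The members' median log2 change was 0.061 on both TPM scales, 0.13 with library totals and 0.22 to 0.44 when each library was left out. Strn-Mlck changed sign on both TPM scales (-0.076). All genes called were 571, 306 by DESeq2, 949 with library totals (101 higher, 848 lower) and 195 to 938 when each library was left out. Member transcripts called were 28 by DESeq2.

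For OGT RNAi, the members' median was -0.13 to -0.0012 and 0 or 1 member was called when each library was left out; all genes called were 119, 254 by DESeq2 and 42 to 264 when each library was left out. DESeq2 called 1 member transcript. The causes were not tested.

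Replicate numbers did not pair the samples (same-number correlation 0.0048 for diet and -0.25 to 0.16 for OGT RNAi). With 2 libraries in each diet group, unlike numbers give the same value with the opposite sign (-0.0048). With the replicate block, 15 members and 728 genes were called on the sugar diet: Strn-Mlck was no longer called (adjusted p = 0.0588), and Mhc, Mlp60A, TpnC73F and wupA were. There were 0 members and 88 genes for OGT RNAi, against 97 genes without the block in the same libraries, a fit added after seeing the data. Not every sample correlated best with its own number. Members at or under a few counts (fln, TpnC47D, Zasp67) could not be compared at this depth.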
